A study of Sus scrofa with 12 samples.

Results

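Nuclear genes for the subunits of oxidative phosphorylation (OXPHOS) were followed in porcine arterial endothelial cells (ECs) exposed to aneurysmal low, physiological or aneurysmal supra-high wall shear stress. Members were all genes of the count table whose symbol begins with NDUFA, NDUFB, NDUFC, NDUFS, NDUFV, UQCR, COX4 to COX8 or ATP5, together with SDHA, SDHB, SDHC, SDHD and CYC1. The rule uses gene symbols and no measured value. It gave 72 of 21153 genes, namely 28 of complex I, 4 of complex II, 7 of complex III, 15 of complex IV, 11 of complex V and 7 assembly factors of complex I whose symbols begin with NDUFAF. A further 9 symbols met the rule by name but were not analysed here (NDUFA1, NDUFA7, NDUFA13, NDUFAF2, NDUFC1, UQCRB, COX6C, ATP5MC2 and ATP5MG).

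Primary ECs of 3 pigs aged 8 months were kept for 48 h under laminar flow with a wall shear stress (WSS) of 2 dyne/cm2 (aneurysmal low), 30 dyne/cm2 (physiological) or 80 dyne/cm2 (aneurysmal supra-high). From each pig came 1 culture with low WSS, 1 with supra-high WSS and 2 with physiological WSS, so the 12 libraries form 4 groups of 3, called low, set 1, set 2 and supra-high. The labels call the cells aortic and the study's methods call them coronary, and both sources also differ on the flow slide and seeding density used for 80 dyne/cm2. Which physiological set served which condition is not given in the labels. Low WSS was therefore compared with set 1 and supra-high WSS with set 2, and the other pairing is given where it matters. Replicate numbers 1 to 3 mark the pigs and are called donors 1 to 3 here.

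Oxidative phosphorylation is carried out in the inner mitochondrial membrane. Complexes I and II pass electrons from NADH and succinate to ubiquinone, complex III passes them on to cytochrome c, complex IV gives them to oxygen, and complex V, the ATP synthase, uses the proton gradient so built to make ATP. Each complex except complex II joins subunits of nuclear and of mitochondrial genes. ECs are known to draw much of their ATP from glycolysis, and their mitochondria are also studied as a source of signals under flow. The 13 subunits encoded by mitochondrial DNA were not analysed here, so the results cover nuclear transcripts only.

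Libraries held 29606854 to 41058902 counts in total, of which the 72 members made up 0.344% to 0.539%. The gene with most counts was FN1 (fibronectin) under low and physiological WSS, with 5.23% to 11.1% of all counts under low WSS and 2.47% to 5.98% under physiological WSS, whereas under supra-high WSS it was VIM (vimentin), with 1.19% to 1.37%. Of 9 endothelial markers written down, 8 were rows of the table, and none of these 8 stood at 3 counts or fewer throughout. In CPM, a gene's counts scaled to the size of its library, PECAM1 ran from 1590 to 4000 and CDH5 from 1320 to 2230 over all cultures. TIE1 ran from 567 to 922, ESAM from 377 to 694 and ERG from 335 to 457. The ranges of TEK (44.2 to 600), KDR (12.1 to 165) and EMCN (7.23 to 242) were wider. The summed level of the 8 markers was 4660 to 5670 CPM under low WSS, 6750 to 7900 in set 1, 6470 to 7540 in set 2 and 8390 to 8490 under supra-high WSS. The 6 smooth muscle markers summed to 65.7 to 83.9 CPM under low WSS, 58.8 to 83.8 in set 1, 56.6 to 70.7 in set 2 and 44.9 to 69.3 under supra-high WSS. Nearly all of this was SMTN (44.1 to 83.2 CPM), while DES was at 0 and MYH11, ACTA2, TAGLN and CNN1 were below 1 CPM in all libraries. The 6 fibroblast markers summed to 364 to 1300 CPM under low WSS, 162 to 304 in set 1, 126 to 722 in set 2 and 46.3 to 175 under supra-high WSS. Collagen genes held the highest of these levels, with COL3A1 at 34.3 to 1120 CPM, COL1A2 at 1.17 to 204 and COL1A1 at 0.646 to 49.2. DCN, PDGFRA and LUM reached 4.55, 4.88 and 15.9 CPM at most. The 5 leukocyte markers summed to 7.58 to 10.3 CPM under low WSS, 14.6 to 22.0 in set 1, 11.9 to 23.4 in set 2 and 12.8 to 27.0 under supra-high WSS. That sum was made up of CD68 (4.83 to 21.7 CPM) and CD14 (1.04 to 5.11 CPM), while PTPRC, LYZ and CD3E reached 3 counts at most. The part of these shifts in any result given here was not tested.

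Of the 72 members, 65 passed the filter of 1 CPM in 3 of the 6 libraries compared, in every comparison, and the lowest count of any of them in any library was 71. The other 7 had no level to compare. CYC1 (cytochrome c1 of complex III), NDUFA2, NDUFB7 and NDUFAF3 were listed at 0 counts in all 12 libraries, as were 3718 of all 21153 genes. Whether these transcripts were missing from the cells or only from the counts was not tested. NDUFA4L2, a paralog of NDUFA4 that is induced in hypoxia, had 1 to 25 counts. COX4I2, the oxygen-regulated isoform of COX4I1, had 0 to 13 counts, and COX6B2, a testis isoform, had 0 to 4 counts. Changes are given as log2 fold changes from edgeR's quasi-likelihood test with the donor as a term, with the standard error (SE) and a p adjusted over all genes tested, and a gene was called when that p was under 0.05. Levels are CPM. Gene lengths were not at hand, so levels are compared between cultures and never between genes.

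**Figure D1:**
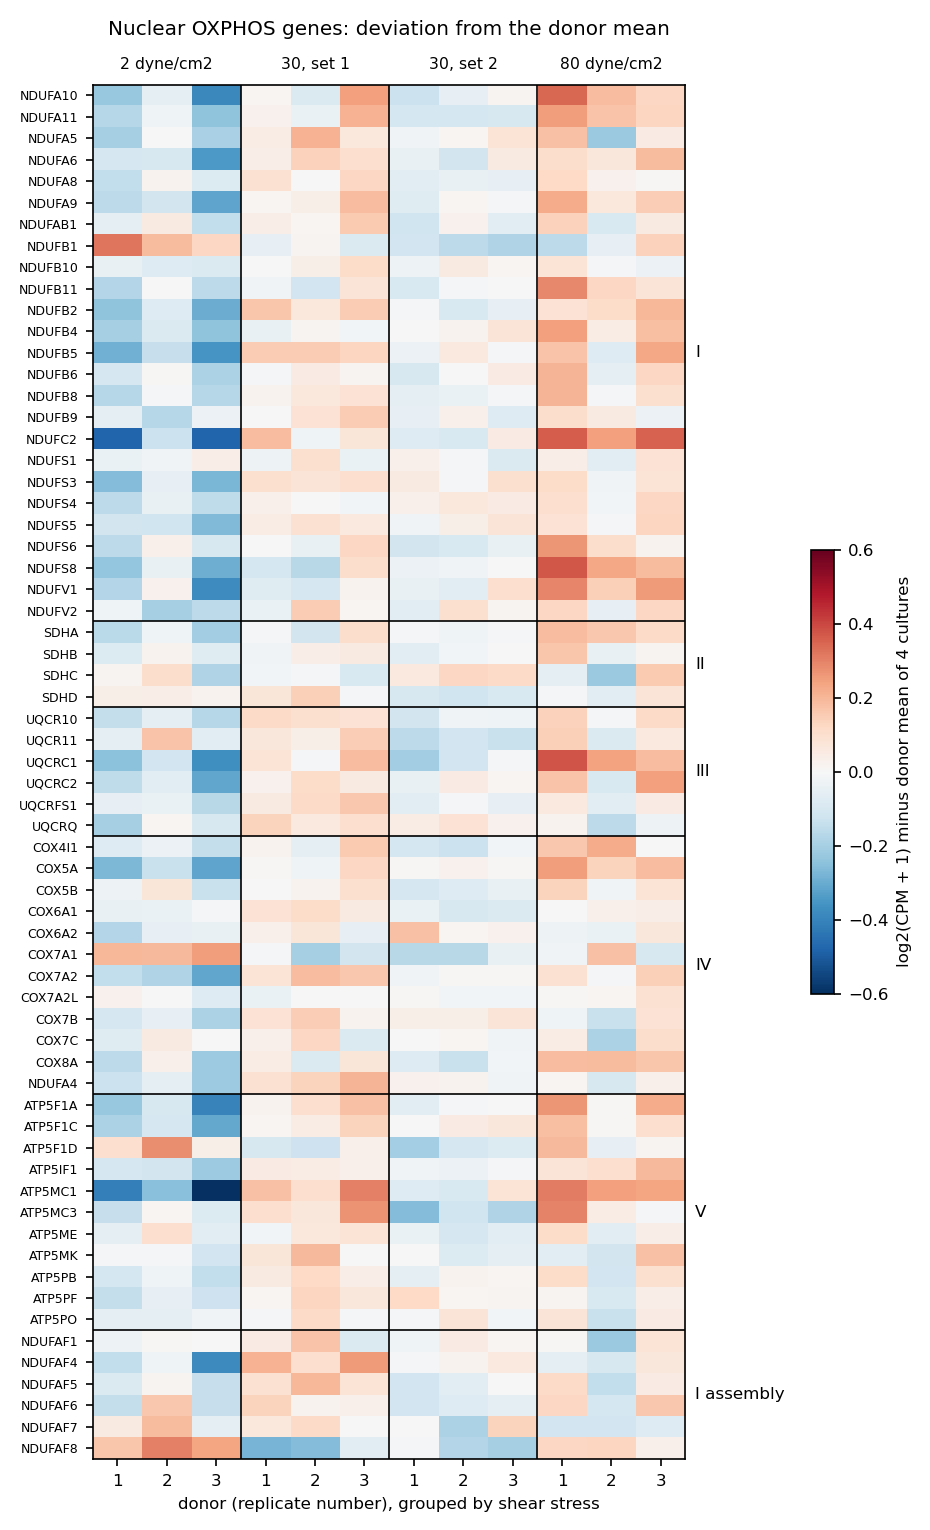
Each row is 1 of 64 tested genes, grouped by complex, and each column 1 of the 12 cultures; colour gives log2(CPM + 1) minus the mean of the same donor's 4 cultures, on a scale that ends at -0.6 and 0.6. The median of a culture over all 65 tested members lies at -0.14, -0.03 and -0.15 under low WSS, between 0.03 and 0.08 in set 1, between -0.04 and 0.00 in set 2, and at 0.12, -0.01 and 0.10 under supra-high WSS.

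Under low vs. physiological WSS most OXPHOS genes lay slightly lower, and few were called. Of 65 members, 4 fell (6.15%) and none rose, whereas over all 11226 genes tested 25.8% were called, 12.4% lower and 13.4% higher. Those that fell included ATP5MC1, NDUFB5 and COX7A2, with 1.27-fold to 1.53-fold lower values. None reached the study's further threshold of a 2-fold change, whereas 9.60% of all genes were called and also reached it. At an unadjusted p under 0.05 there were 17 lower and 3 higher members, beside 20.5% and 22.0% of all genes, and DESeq2 called 4 members, all lower, and 29.6% of all genes. The median log2 fold change over the members was -0.15, against 0.00 over all genes tested, and 58 of 65 (89.2%) were negative, against 49.8% of all genes. Lower levels in all 3 donors were seen for 37 members (56.9%), compared with 34.3% of all genes, and higher levels in all 3 donors for 4 members (6.15%), compared with 31.6%. In bulk RNA such as this, fewer cells of a type and less RNA per cell cannot be told apart.

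ATP5MC1 encodes the c subunit of ATP synthase, which forms the rotating ring in the membrane. Its level was 61.4, 74.0 and 48.5 CPM in donors 1 to 3 under low WSS, 92.7, 94.7 and 92.9 in set 1, 77.6, 82.8 and 79.5 in set 2, and 102, 105 and 88.6 under supra-high WSS. All cultures under low WSS were below all 9 others. The log2 fold change under low WSS was -0.61 (SE 0.13, adjusted p = 0.0286, edgeR), the lowest of the 65. The call was lost without the donor term (adjusted p = 0.0643), against set 2 (-0.40, adjusted p = 0.0712), and without donor 1 (adjusted p = 0.0663) or donor 3 (-0.46, adjusted p = 0.0637).

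NDUFB5 (chromosome 13, 117656411 to 117671515, RefSeq on Sscrofa11.1, as for all positions here) encodes a small supernumerary subunit in the membrane arm of complex I. It had 22.8, 22.8 and 21.1 CPM under low WSS, 31.4, 28.2 and 30.0 in set 1, 27.4, 26.3 and 27.1 in set 2, and 31.8, 23.9 and 32.2 under supra-high WSS. The 3 cultures under low WSS were again below every other culture, and donor 2 was low under supra-high WSS. The log2 fold change was -0.41 (SE 0.09, adjusted p = 0.0329, edgeR). This was the single member still called without the donor term (adjusted p = 0.0413, beside 11.1% of all genes), but it was not called against set 2 (adjusted p = 0.0565) or without any 1 of the donors (adjusted p from 0.0643 to 0.185).

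COX7A2 (chromosome 1, 90696746 to 90703407) is the ubiquitous isoform of subunit 7A of complex IV. Its level was 62.2, 63.3 and 47.7 CPM under low WSS, 73.2, 81.7 and 66.6 in set 1, 68.1, 72.1 and 59.8 in set 2, and 73.7, 71.4 and 65.8 under supra-high WSS. Values under low WSS lay below set 1 without overlap but overlapped those of set 2. The log2 fold change was -0.35 (SE 0.09, adjusted p = 0.0430, edgeR), and the call was lost without the donor term (adjusted p = 0.171), against set 2 (-0.21, adjusted p = 0.0951) and without any 1 donor (adjusted p from 0.112 to 0.133).

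**Figure D2:**
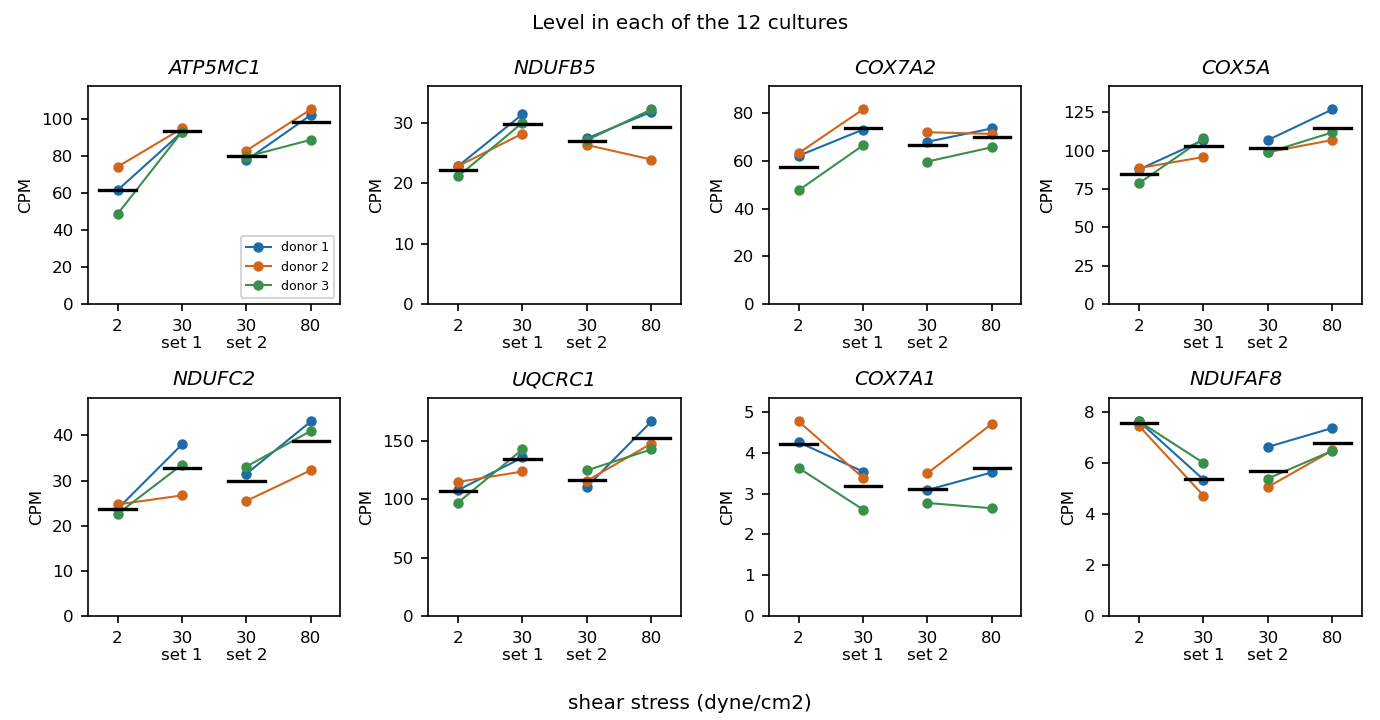
Level in CPM (vertical axis, from 0) in each of the 12 cultures by shear stress for 8 members; colours mark the 3 donors, lines join the cultures compared within a donor, and black bars are group means. ATP5MC1, NDUFB5 and COX5A under low WSS lie below all cultures at 30 dyne/cm2, COX7A1 and NDUFAF8 under low WSS lie above them, and NDUFC2 and UQCRC1 are higher under supra-high WSS than in set 2 in each donor.

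By complex, the median log2 fold change under low vs. physiological WSS was -0.16 for complex I (2 of 26 called, 25 negative), -0.20 for complex III (0 of 6 called, all negative), -0.11 for complex IV (1 of 12 called, 10 negative) and -0.16 for complex V (1 of 11 called, 10 negative). Complex II, whose 4 subunits are all nuclear and which also serves the TCA cycle, had a median of -0.04 (0 of 4 called). The 6 complex I assembly factors had a median of -0.07 and ran from -0.46 for NDUFAF4 to 0.52 for NDUFAF8. The 6 tested core subunits of complex I, which carry the flavin, the iron-sulfur clusters and the ubiquinone site, had a median of -0.14, and its 20 supernumerary subunits one of -0.16. Within the donors, the median difference of log2(CPM + 1) over the 65 members was -0.16, -0.11 and -0.23, while over all genes it was between -0.02 and -0.01. Donor 2 had the smallest difference, with 44 members lower, against 58 and 56 in donors 1 and 3.

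Against set 2 the shift was smaller. The median over the members was -0.08, 2 of 65 were called beside 24.6% of all genes, including NDUFB1, which was higher, and the mean of the donors' medians moved from -0.21 to -0.07 for complex III, from -0.16 to -0.05 for complex IV, from -0.17 to -0.08 for complex V and from -0.09 to 0.02 for the assembly factors. When the variance was estimated from all 12 libraries, 20 members were called, 19 of them lower, beside 40.1% of all genes. The lower ones included NDUFC2, UQCRC1, NDUFA4, ATP5F1A, ATP5IF1 and NDUFAF4, which were not called with the variance from the 6 libraries compared.

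**Figure D3:**
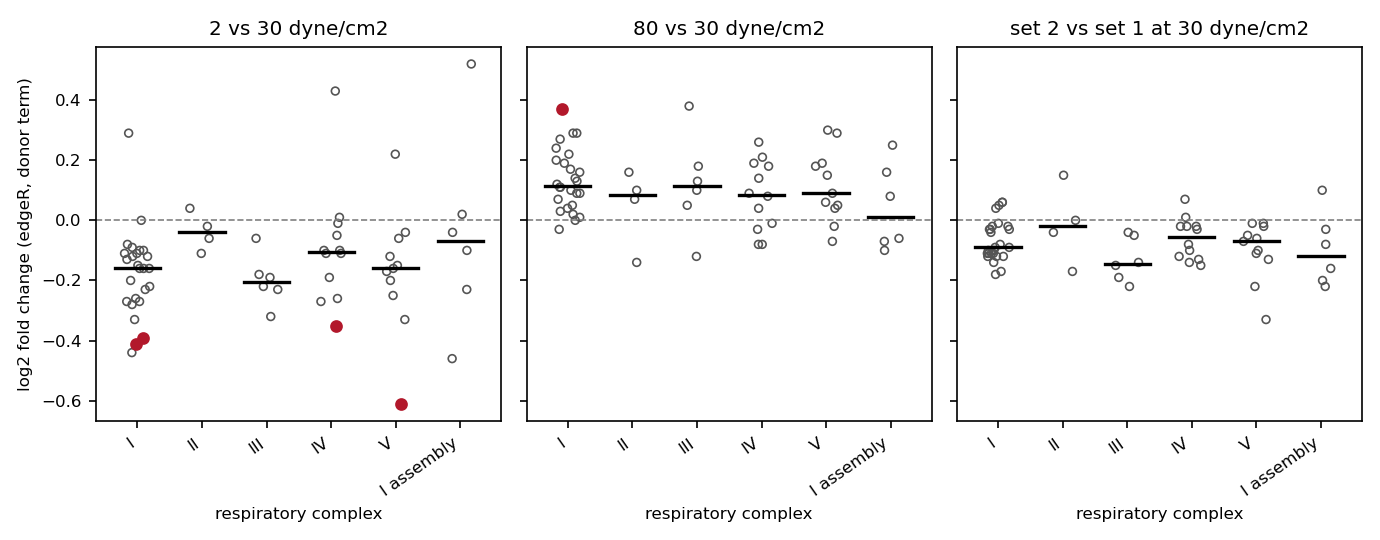
Log2 fold change (vertical axis) of each tested member by complex, for 2 vs. 30, 80 vs. 30 and set 2 vs. set 1 at 30 dyne/cm2; filled points were called at an adjusted p under 0.05, open points were not, and black bars are medians. The bars of complexes I, III, IV and V lie at -0.20 to -0.11 under low WSS and at 0.08 to 0.12 under supra-high WSS, and those of set 2 vs. set 1 lie at -0.15 to -0.05.

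Higher values under low WSS were rare, and none was called against set 1 with dispersion from the 6 libraries compared. NDUFAF8 (chromosome 12, 1517304 to 1519478), an assembly factor of complex I, had 7.63, 7.45 and 7.63 CPM under low WSS, 5.35, 4.72 and 6.0 in set 1, 6.63, 5.06 and 5.39 in set 2 and 7.37, 6.49 and 6.48 under supra-high WSS. Its log2 fold change was 0.52 (SE 0.14, adjusted p = 0.0519, edgeR), the highest of the 65, and with dispersion from all 12 libraries it was called (0.50, adjusted p = 0.0119). NDUFB1 (chromosome 7, 113652772 to 113659937), a supernumerary subunit of complex I, had 17.7, 13.8 and 11.5 CPM under low WSS and 13.4, 12.2 and 9.75 in set 1. The groups overlapped, each donor was higher under low WSS, and the log2 fold change was 0.29 (adjusted p = 0.111, edgeR), or 0.40 against set 2 (adjusted p = 0.0348). NDUFB1 overlaps CPSF2 in the RefSeq annotation, and the library kit does not mark the strand. ATP5F1D, a subunit of the central stalk of ATP synthase, had 117, 120 and 92.9 CPM under low WSS and 102, 90.8 and 92.4 in set 1, with a log2 fold change of 0.22 (adjusted p = 0.164, edgeR).

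Several subunits of complex IV come in tissue isoforms, and for subunit 7A both were measured. COX7A1 (chromosome 6, 45519225 to 45520721), the isoform of heart and skeletal muscle, had 4.26, 4.77 and 3.63 CPM under low WSS, 3.54, 3.39 and 2.61 in set 1, 3.09, 3.50 and 2.77 in set 2, and 3.52, 4.71 and 2.64 under supra-high WSS. It ran opposite to COX7A2 under low WSS, with a log2 fold change of 0.43 that was not called (SE 0.16, adjusted p = 0.112, edgeR). The counts of COX7A1 were 6.86%, 7.54% and 7.62% of those of COX7A2 under low WSS, 4.84%, 4.15% and 3.92% in set 1, 4.54%, 4.85% and 4.63% in set 2 and 4.78%, 6.59% and 4.02% under supra-high WSS. The ratio was higher under low WSS than in every other culture. It was chosen after its values were seen and was not tested.

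The other isoform pairs differed little. COX6A1, the ubiquitous isoform of subunit 6A, had log2 fold changes of -0.10 under low and 0.09 under supra-high WSS, and COX6A2, the muscle isoform, of -0.10 and -0.08 (adjusted p from 0.356 to 0.651, edgeR). COX6A2 was present at 16.0 to 21.1 CPM in all 12 cultures, while the 4 cardiac muscle markers in the table summed to between 0.0557 and 0.151 CPM. COX4I1, the main isoform of subunit 4, ran from 165 to 231 CPM, with log2 fold changes of -0.11 under low and 0.21 under supra-high WSS (adjusted p = 0.412 and 0.223, edgeR). NDUFA4, named for complex I but a subunit of complex IV, had values of -0.27 and -0.03 (adjusted p = 0.0795 and 0.855, edgeR). COX7A2L, which helps to join complexes III and IV, was between 87.7 and 98.7 CPM in every culture, with log2 fold changes of 0.01 and 0.04 (SE 0.08 for each, adjusted p = 0.921 and 0.772, edgeR).

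None of the 4 succinate dehydrogenase subunits was called, and their log2 fold changes under low WSS lay between -0.11 and 0.04. SDHA (chromosome 16, 79838442 to 79862956, overlapping CCDC127), the flavoprotein that oxidises succinate, had 167, 159 and 157 CPM under low WSS, 185, 150 and 196 in set 1, 185, 159 and 181 in set 2, and 212, 181 and 197 under supra-high WSS. Its log2 fold changes were -0.11 under low and 0.16 under supra-high WSS (adjusted p = 0.447 and 0.248, edgeR). SDHB, the iron-sulfur subunit, had values of -0.06 and 0.07, and SDHC and SDHD, the membrane anchors, had 0.04 and -0.02 under low WSS and -0.14 and 0.10 under supra-high WSS. The standard errors of these 8 values were 0.08 to 0.10.

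Under supra-high vs. physiological WSS the members lay slightly higher than in set 2, and 1 was called. NDUFC2 rose, which makes 1.54% of 65 members, and none fell, whereas 8.40% of all 11187 genes tested were called, 4.36% higher and 4.04% lower. At an unadjusted p under 0.05 there were 9 higher members, beside 13.3% of all genes, and 0 lower ones. No member reached a 2-fold change, whereas 2.20% of all genes were called and also reached it. The median log2 fold change was 0.10, against -0.01 over all genes tested, and 52 of 65 were positive, beside 49.1% of all genes. Higher levels in all 3 donors were seen for 32 members (49.2%), compared with 25.1% of all genes, and lower levels in all 3 for 1, compared with 24.2%. The donors' median differences of log2(CPM + 1) were 0.18, 0.02 and 0.11, with donor 2 again the smallest. Without the donor term no member and no other gene was called, and 5 members (7.69%) had an unadjusted p under 0.05, beside 8.30% of all genes. With the donor term, DESeq2 called 2 members and 10.3% of all genes.

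NDUFC2 (chromosome 9, 12486488 to 12492507) encodes a supernumerary subunit of the membrane arm that is needed to assemble complex I. Its level was 43.1, 32.3 and 41.0 CPM under supra-high WSS, 31.5, 25.5 and 33.1 in set 2, 38.0, 26.7 and 33.5 in set 1, and 23.7, 24.7 and 22.6 under low WSS. Supra-high and set 2 values overlapped, with donor 2 the lowest in each, yet within each donor the culture under supra-high WSS was the highest of 4 and that under low WSS the lowest. The log2 fold change under supra-high WSS was 0.37 (SE 0.09, adjusted p = 0.0435, edgeR), a 1.29-fold rise. The call was lost without the donor term (adjusted p = 0.591), against set 1 (0.25, adjusted p = 0.369), with scaling to total counts (adjusted p = 0.103) and without any 1 donor (adjusted p from 0.0563 to 0.194). Under low WSS its log2 fold change was -0.44 (SE 0.14, adjusted p = 0.0739, edgeR).

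UQCRC1, a core protein of complex III, had 167, 148 and 143 CPM under supra-high WSS, 111, 116 and 125 in set 2, 136, 124 and 143 in set 1 and 108, 115 and 97.3 under low WSS. Values under supra-high WSS were above those of set 2 without overlap. The log2 fold change of 0.38 was the highest under supra-high WSS and was not called by edgeR (SE 0.10, adjusted p = 0.0622), while DESeq2 called it (adjusted p = 0.0299), as did edgeR with no filter (0.37, adjusted p = 0.0435). Against set 1 it was 0.18 (adjusted p = 0.519, edgeR).

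ATP5MC3 encodes the same mature c subunit of ATP synthase as ATP5MC1. It had 90.9, 81.5 and 83.5 CPM under low WSS, 107, 84.8 and 107 in set 1, 83.4, 74.3 and 77.8 in set 2 and 123, 83.3 and 87.7 under supra-high WSS. Set 2 had the lowest culture of the 4 in each donor. Its log2 fold changes of -0.20 under low and 0.30 under supra-high WSS were not called (adjusted p = 0.152 and 0.126, edgeR), and against the other set they became 0.12 and -0.04. ATP5F1A, the alpha subunit of the catalytic head, had 526, 532 and 398 CPM under low WSS, 625, 610 and 593 in set 1, 590, 564 and 526 in set 2 and 741, 572 and 613 under supra-high WSS. It had log2 fold changes of -0.33 and 0.19 (adjusted p = 0.0980 and 0.307, edgeR). ATP5IF1, which inhibits ATP hydrolysis by the synthase, had 64.5, 67.3 and 59.8 CPM under low WSS, 71.7, 74.9 and 71.2 in set 1, 68.3, 70.9 and 69.3 in set 2, and 73.3, 78.2 and 79.8 under supra-high WSS. The groups did not overlap for low WSS vs. either set nor for supra-high WSS vs. set 2, yet its log2 fold changes of -0.17 and 0.15 were not called (adjusted p = 0.154 and 0.282, edgeR).

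Both sets at 30 dyne/cm2 share the shear stress and the donors, so their comparison shows how far the members moved between cultures that the labels give the same flow. None of the 65 was called for set 2 vs. set 1 by edgeR, where 2 of 11163 genes were (0.0179%), 7 members had an unadjusted p under 0.05, all lower, beside 8.94% of all genes in that direction, and DESeq2 called 1 member, ATP5MC3 (-0.33, adjusted p = 0.0483), and 4.26% of all genes. The members were nevertheless shifted together. Their median log2 fold change was -0.08, against 0.01 over all genes, and 57 of 65 were negative, beside 48.7% of all genes. Lower levels in set 2 in all 3 donors were seen for 37 members (56.9%), compared with 22.8% of all genes, and the donors' medians were -0.07, -0.08 and -0.09. Under supra-high WSS against set 1, in place of set 2, the members' median was 0.00, with none called by edgeR, beside 0.234% of all genes, and 2 at an unadjusted p under 0.05, beside 13.6%.

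**Figure D4:**
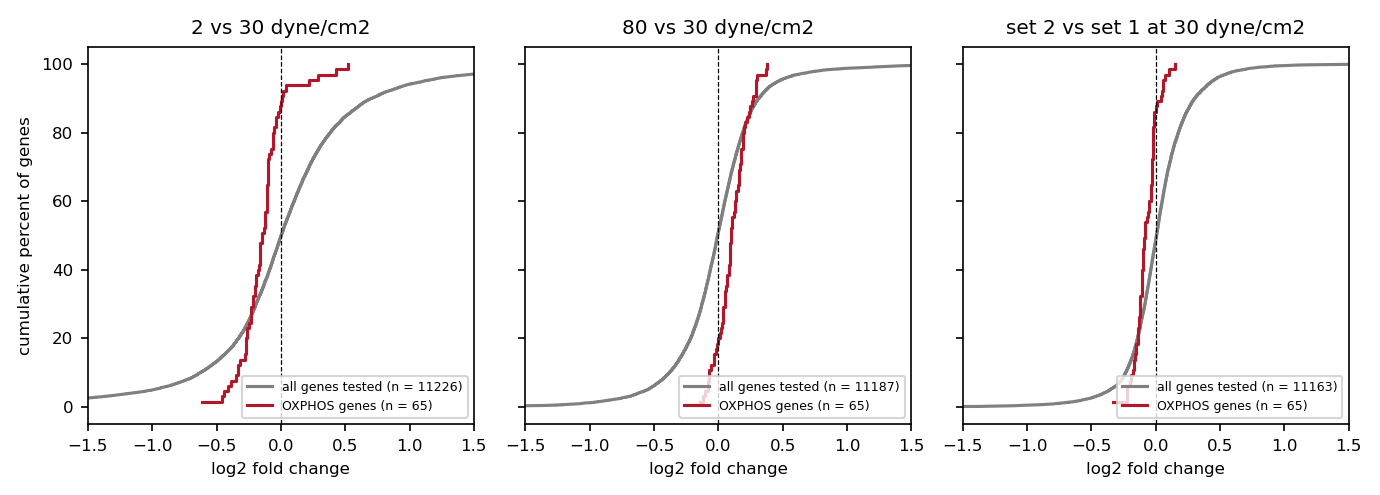
Cumulative percent of genes (vertical axis) by log2 fold change (horizontal axis) for the 65 tested members in red and all genes tested in gray. The members' curve is steeper than that of all genes in each panel, and its median lies at -0.15 for low vs. physiological WSS, at 0.10 for supra-high vs. physiological WSS and at -0.08 for set 2 vs. set 1 at 30 dyne/cm2.

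Whether the members responded differently to low and supra-high shear stress was tested over all 12 libraries as the difference between both log2 fold changes. Of 65 members, 18 were called (27.7%), all lower under low WSS than under supra-high WSS relative to their controls, and none higher (30 at an unadjusted p under 0.05, all lower, beside 22.6% of all genes). Over all 11568 genes tested 37.1% were called, 17.9% in that direction and 19.3% in the other. The 18 were 9 of 26 in complex I, 0 of 4 in complex II, 2 of 6 in complex III, 3 of 12 in complex IV, 4 of 11 in complex V and 0 of 6 assembly factors. The largest differences were -0.89 for ATP5MC1 (SE 0.15, adjusted p = 0.0016, edgeR), -0.79 for NDUFC2 (SE 0.16, adjusted p = 0.00421, edgeR) and -0.68 for UQCRC1 (SE 0.14, adjusted p = 0.00422, edgeR). The median over the members was -0.23, against 0.01 over all genes. Without the donor term 8 members were called, beside 15.1% of all genes, without donor 1 there was 1 (beside 21.0%), without donor 2 there were 17 (beside 29.2%) and without donor 3 there were 3 (beside 17.1%).

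This contrast depended on the pairing of the sets. With the sets exchanged, an alternative added after the values were seen, 4 members were called (6.15%, beside 22.2% of all genes), and the median over the members was -0.06. These 4 were NDUFC2 (-0.55, adjusted p = 0.0328), NDUFS8 (-0.48, adjusted p = 0.0397), COX5A (-0.39, adjusted p = 0.0264) and NDUFB4. NDUFS8, a core subunit of complex I that holds iron-sulfur clusters, had 36.3, 35.5 and 32.8 CPM under low WSS, 39.8, 32.5 and 43.6 in set 1, 41.7, 36.0 and 40.4 in set 2 and 55.8, 43.2 and 46.3 under supra-high WSS. In each donor its culture under supra-high WSS was the highest. COX5A, a nuclear subunit of complex IV, had 87.8, 88.7 and 78.8 CPM under low WSS, 107, 95.9 and 108 in set 1, 107, 99.1 and 98.9 in set 2 and 127, 107 and 112 under supra-high WSS. Within each donor it was lowest under low and highest under supra-high WSS, and both sets at 30 dyne/cm2 lay between.

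Over the 12 cultures, the donor accounted for a median of 36.4% of the variance of a member's log2(CPM + 1) and the group for 40.1%, compared with 31.1% and 41.6% over all genes. The group share treats both physiological sets as separate groups, so it includes their difference and is not the share of shear stress alone. Neither share was adjusted for the number of groups (4) or donors (3), so which of them was larger cannot be read from these values. For SDHB the donor and group shares were 67.3% and 10.3%, and for ATP5IF1 they were 7.76% and 81.0%.

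Other genes of the pathway were read from lists written from general knowledge, and their counts stand beside the 25.8% and 8.40% of all genes called in the same comparisons. Under low vs. physiological WSS, 2 of 30 assembly factors outside the rule rose (median -0.02): ATPAF1, a chaperone for the head of ATP synthase, by 0.63 (SE 0.11, adjusted p = 0.0201, edgeR), and COX19, which handles copper for complex IV, by 0.53 (adjusted p = 0.0337, edgeR). Of 18 TCA cycle enzymes 1 fell (median -0.10), namely DLST of the 2-oxoglutarate dehydrogenase complex (-0.54, SE 0.09, adjusted p = 0.0166, edgeR). Of 20 electron carriers and nucleotide exchangers (median 0.05), COQ8A of ubiquinone synthesis rose (1.18, adjusted p = 0.0211, edgeR) and VDAC3 of the outer membrane fell (-0.36, adjusted p = 0.0287, edgeR). Of 60 mitochondrial ribosomal proteins, which translate the mitochondrial subunits, MRPS6 rose by 0.55 and MRPL39 had -0.46 (adjusted p = 0.0202 and 0.0269, edgeR), and the median was -0.10 with 42 negative. None of 18 biogenesis regulators was called by edgeR or DESeq2 (median 0.13, with 3 at an unadjusted p under 0.05). None of 42 cytosolic ribosomal proteins was called by edgeR and 3 by DESeq2 (median 0.12, with 38 positive and 4 at an unadjusted p under 0.05). Over all genes in this comparison, DESeq2 called 29.6%, and 42.5% had an unadjusted p under 0.05 in edgeR. Of all genes, 50.2% were positive and 49.8% negative.

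Of 7 tested hypoxia-responsive mitochondrial genes and their regulators, 5 were called under low WSS, in unlike directions. PDK1, which inhibits pyruvate dehydrogenase and so limits the entry of pyruvate into the TCA cycle, had 47.4, 36.0 and 63.6 CPM under low WSS and 23.6, 20.5 and 34.9 in set 1, a log2 fold change of 0.91 (SE 0.09, adjusted p = 0.00641, edgeR). HIGD1A, a partner of complex IV, had 44.8, 44.7 and 33.6 CPM against 82.1, 71.9 and 65.0 (-0.82, adjusted p = 0.00758, edgeR), and HIF1A, the oxygen-regulated transcription factor, fell by 0.69 on the log2 scale (adjusted p = 0.0140, edgeR). BNIP3L, a receptor for mitophagy, and FAM162A were the other 2, the former higher and the latter lower. Without the donor term 2 of the 7 were called, beside 11.1% of all genes. HIGD1A was 1 of these (adjusted p = 0.026, edgeR), whereas PDK1 and HIF1A were not called (adjusted p = 0.0863 and 0.111, edgeR).

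Under supra-high vs. physiological WSS the lists held few calls. COX17, the copper chaperone of complex IV, rose by 0.43 (SE 0.09, adjusted p = 0.0283, edgeR) as 1 of 30 assembly factors. IDH2, the mitochondrial NADP-dependent isocitrate dehydrogenase, had 109, 88.9 and 113 CPM against 72.5, 59.6 and 78.1 in set 2, a rise of 0.56 (SE 0.08, adjusted p = 0.00851, edgeR), and was the 1 called of 18 TCA cycle enzymes. Of 20 carriers, COQ3 and COQ8A of ubiquinone synthesis fell (-0.63 and -0.51, adjusted p = 0.0217 and 0.0356, edgeR). MRPL38 rose by 0.41 (adjusted p = 0.0279, edgeR) as 1 of 59 mitochondrial ribosomal proteins, whose median was 0.09. PDK1 fell (-0.41, adjusted p = 0.0485, edgeR) as 1 of 7 hypoxia-responsive genes. Of 17 biogenesis regulators and 42 cytosolic ribosomal proteins, 0 were called by edgeR or DESeq2 (4 and 1 at an unadjusted p under 0.05 in edgeR, medians -0.12 and 0.07). Over all genes in this comparison, DESeq2 called 10.3%, and 26.1% had an unadjusted p under 0.05 in edgeR. Without the donor term no gene was called in this comparison. COQ8A and PDK1 were thus called in opposite directions under low WSS vs. set 1 and supra-high WSS vs. set 2. With set 1 as the control for supra-high WSS, no gene of their lists was called, beside 0.234% of all genes. COQ8A had 7.77, 12.6 and 6.77 CPM under supra-high WSS and 7.23, 15.7 and 7.41 in set 1. PDK1 had 16.8, 13.1 and 28.7 CPM under supra-high WSS and 23.6, 20.5 and 34.9 in set 1.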

How the data were processed

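RNA of 12 cultures was sequenced in single reads of 100 nt. Per the labels and the study's methods, the authors used STAR 2.4 to map reads to Sscrofa11.1, dropped those with more than 1 location and counted the rest over exons with featureCounts 1.4.6; CASAVA 1.8.2 is also listed. The deposited values are raw counts, which the authors did not normalize. Dropped reads may lower the counts of members with near-identical copies. Of the 65 tested members, 10 overlap another gene in RefSeq and 32 do not. The other 23, with ATP5MC1, UQCRC1 and COX5A among them, had no single position and were not checked. Total counts were 29606854 to 41058902.

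Symbols were matched by Ensembl ID (14572 of 21153 genes), and positions are those of RefSeq on Sscrofa11.1 where the symbol matched a single gene. Tests used edgeR 4.0.16 in R 4.3.3 (TMM scaling, the quasi-likelihood test and Benjamini-Hochberg adjustment) and the donor as a term (replicate block), because cultures of the same donor were compared in the study. Libraries with the same replicate number deviated together from their group means (r from 0.606 to 0.862 for 18 pairs, from -0.552 to -0.166 for 36 others). The filter was 1 CPM in 3 of the 6 libraries, or of all 12 for the difference between responses, in place of the study's RPKM filter. The standard error is the size of the log2 fold change divided by the square root of F. CPM used TMM-scaled library sizes, and differences within donors used log2(CPM + 1). The replicates are 3 pigs. With the donor term, p-values rest on how far the differences between a pig's cultures vary from pig to pig. Without it, they rest on the spread between the cultures of a group. The procedure was also run on simulated data, with fold changes larger than those of most members. That run cannot show whether changes as small as theirs would be called.

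Named members are those called, at most 3 per complex and comparison, the tissue isoforms, the SDH genes, CYC1 and ATP5IF1; others were named after their values were seen. 1 further called member is not reported here by name and is not drawn by name in any plot, but it stays in all counts and medians. Up to 3 called genes with the lowest adjusted p were named from each list; BNIP3L and FAM162A are beyond this rule. The members and lists were chosen with earlier results of these data known. Alternatives were no donor term, relative log expression or total-count scaling, DESeq2 1.42.0, other filters, dispersion from 12 libraries, a pseudocount of 0.1, the other set at 30 dyne/cm2 and each donor left out.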

Additional observations from a re-analysis of the deposited data

Results flagged for a closer look

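For 18 of the 65 OXPHOS genes the response to 2 dyne/cm2 differed from that to 80 dyne/cm2 by the test of the difference itself (edgeR with the donor term, adjusted p under 0.05), beside 37.1% of all genes. The log2 differences of 17 of them are given here. In complex I they were -0.54 for NDUFA10, -0.49 for NDUFA11, -0.41 for NDUFA6, -0.42 for NDUFA9, -0.51 for NDUFB2, -0.51 for NDUFB5, -0.79 for NDUFC2 and -0.41 for NDUFS8. In complex III they were -0.34 for UQCR10 and -0.68 for UQCRC1. In complex IV they were -0.43 for COX5A, -0.41 for COX7A2 and -0.36 for COX8A. In complex V they were -0.50 for ATP5F1A, -0.31 for ATP5IF1, -0.89 for ATP5MC1 and -0.50 for ATP5MC3. With the sets at 30 dyne/cm2 exchanged, 3 of these 18 (NDUFC2, NDUFS8 and COX5A) were called, 14 had the same direction without a call, and ATP5MC3 changed direction to 0.17.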

How the results depend on the processing

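Calls among the members rested on the donor term, the donors and the control set. At 2 vs. 30 dyne/cm2 the 4 calls became 1 without the donor term (no replicate block), 2 with total-count scaling (beside 24.5% of all genes), 20 with dispersion from all 12 libraries, 2 against the other set, 0 with a 2-fold threshold and 0 to 2 when 1 donor was left out (beside 12.7%, 16.6% and 13.6% of all genes without donors 1 to 3), and they stayed within 3 to 4 otherwise. At 80 vs. 30 dyne/cm2 the 1 call became 0 without the replicate block, with total counts, with that dispersion, against the other set, with a 2-fold threshold or without any donor (0 to 0), and 2 with DESeq2 or no filter, beside 8.63% of all genes with total counts, 3.25% with that dispersion, 18.6%, 3.15% and 1.68% without donors 1 to 3 and 8.07% with no filter. Between the sets DESeq2 gave 1 in place of 0. For the difference between responses 18 became 8 without the replicate block, 4 with exchanged sets (chosen after seeing the data) and 1 to 17 without 1 donor. Against the other set the means of the donors' medians at 2 dyne/cm2 were -0.07 (III), -0.05 (IV), -0.08 (V), 0.02 (assembly factors) and -0.08 (all), and at 80 dyne/cm2 -0.01 (II), -0.05 (III), 0.00 (IV), 0.01 (V), -0.07 (assembly factors) and 0.01 (all). With all members that had a count, complex IV gave -0.08 at 2 dyne/cm2.

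List counts at 2 dyne/cm2 became 1 (assembly factors), 0 (carriers), 1 (mitochondrial ribosome) and 2 (hypoxia) without the replicate block, beside 11.1% of all genes. Against the other set they became 1 (assembly factors), 2 (TCA cycle), 4 (mitochondrial ribosome) and 1 (cytosolic ribosome), beside 24.6% of all genes. In the hypoxia list 1 gene was called higher and 3 lower against the other set, beside 24.6% of all genes. DESeq2 called 2 of that list higher and 2 lower, beside 29.6% of all genes. At 80 dyne/cm2 the counts of the 5 lists with calls became 0 without the replicate block and against the other set, beside 0% and 0.234% of all genes. With total counts they became 0 for assembly factors and mitochondrial ribosome, beside 8.63% of all genes.

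Some directions turned, also for ATP5MC3 with its values of 0.30 at 80 dyne/cm2 and -0.50 for the difference between responses. Against the other set SDHC (-0.11), SDHD (0.14), COX4I1 (0.00), COX6A1 (0.05), COX7A2L (0.00) and ATP5MC3 (0.12) turned at 2 dyne/cm2, and NDUFB5 (-0.04), SDHD (-0.07), COX6A1 (-0.07), COX7A2 (-0.07) and ATP5MC3 (-0.04) at 80 dyne/cm2. COX7A2L at 2 dyne/cm2 also turned with total counts (0.00), no filter (0.00) and the other dispersion (-0.01), and without donor 1 (-0.03). With 1 donor left out, SDHC ran from -0.01 to 0.09 and SDHD from -0.06 to 0.02 at 2 dyne/cm2, both turning without donor 2, SDHB from -0.02 (without donor 1) to 0.11 at 80 dyne/cm2, and NDUFA4 there turned without donor 2 (0.01). For the difference between responses SDHC (-0.10), SDHD (0.23), COX6A1 (0.12), NDUFA4 (0.04) and ATP5MC3 (0.17) turned with exchanged sets, COX6A2 without donor 2 (0.01) and COX7A2L without donor 3 (0.03). The causes were not tested. NDUFAF4, with counts down to 71, had an SE of 0.20 at 2 dyne/cm2.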
